A study of Mus musculus with 75 samples.

Results

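The genes followed here are 10 listed names that mark keratinocytes, the epithelial cells of the epidermis: Krt5, Krt14, Krt15, Krt17, Krt10, Trp63, Cdh1, Epcam, Dsp and Perp2. They were read in RNA-seq of cultured mouse skin fibroblasts, where they were listed as tracers of residual epidermal cells. Of the 10 names, 9 matched a symbol among the 24984 genes of the count tables, and Perp2 was not analysed here. The passage series had 16 libraries, with 4 each at passage 1, 3, 5 and 7 (P1, P3, P5 and P7), from skin fibroblasts of 2-month-old female C57BL/6 mice passaged toward replicative senescence. The other 28 libraries were also C57BL/6 skin fibroblasts. E2f4 overexpression (E2f4 OE, 2 libraries) used a doxycycline-inducible lentivirus with EGFP and was set against an EGFP vector (2 libraries). The knockdowns used lentiviral short hairpins with puromycin, each against a non-targeting hairpin (nt), with 3 libraries per group: E2f4 sh1, Tead1 sh3 and sh4, and Atf3 sh5 and sh6. For these 28 libraries the methods name both 2-month-old and newborn mice, and the labels give neither the age nor the passage of a library. The paper describes pre-senescent cells for E2f4 overexpression and Atf3 knockdown, and proliferating P3 cells for E2f4 knockdown. ATAC-seq of the passage series, which maps open chromatin, had 4 samples of P1 and 3 of each later passage. The labels do not say that replicates came from separate animals or cultures, so p-values measure only the spread between these samples, which may be technical.

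Keratinocytes are built around keratin filaments, which assemble from pairs of a type I and a type II keratin. In the basal layer the pair is Krt5 and Krt14, Krt15 is a further basal and hair follicle keratin, Krt17 marks hair follicles and keratinocytes activated by wounding or culture, and Krt10 replaces the basal pair when cells leave the basal layer. Trp63 encodes p63, the transcription factor that keeps the stratified epithelial fate. Cdh1 (E-cadherin) and Epcam hold epithelial cells together, and Dsp (desmoplakin) ties keratin filaments to desmosomes, the spot junctions of the epidermis. Dermal fibroblasts make little of the basal keratins, so skin cultures are often checked with them.

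The genes lie apart in the genome (GRCm38, positions from 1). Krt14, Krt15, Krt17 and Krt10 are type I keratins on chromosome 11, at 100203162 to 100207510, 100131759 to 100135949, 100256215 to 100261029 and 99385254 to 99397449. Krt5 is at 101707069 to 101712905 of chromosome 15 and Trp63 at 25683763 to 25892088 of chromosome 16. Cdh1 is at 106603350 to 106670247 of chromosome 8, Epcam at 87635979 to 87651127 of chromosome 17 and Dsp at 38151294 to 38198577 of chromosome 13. The exons of 0 of the 9 genes overlapped those of another gene. The keratins share near-identical stretches with one another, so the split of reads between Krt14, Krt15 and Krt17 is uncertain.

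The promoters of Krt5, Krt14 and Dsp are shown because the first pair carries the highest keratin counts at P1 and Dsp had the highest mean promoter peak at each passage in the ATAC-seq. Dsp, like Trp63, had a peak in every sample. Each is the RefSeq window of GRCm38.p6 from 250 bases before to 50 bases from an annotated transcription start, 5′ to 3′ on the strand of the gene, and capitals mark the motifs found in it. Krt5 is chr15:101712856-101713155 on the minus strand, Krt14 is chr11:100205981-100206280 on the minus strand and Dsp is chr13:38151044-38151343 on the plus strand. The Krt14 window belongs to a start inside the gene, at 100206030, and not to the upstream start at 100207510, where its ATAC-seq peaks were found.
Krt5: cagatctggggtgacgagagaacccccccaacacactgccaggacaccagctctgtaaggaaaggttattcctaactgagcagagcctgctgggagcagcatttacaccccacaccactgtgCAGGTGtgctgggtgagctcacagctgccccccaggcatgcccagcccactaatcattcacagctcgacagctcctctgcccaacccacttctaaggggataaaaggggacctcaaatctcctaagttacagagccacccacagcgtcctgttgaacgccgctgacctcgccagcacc
Krt14: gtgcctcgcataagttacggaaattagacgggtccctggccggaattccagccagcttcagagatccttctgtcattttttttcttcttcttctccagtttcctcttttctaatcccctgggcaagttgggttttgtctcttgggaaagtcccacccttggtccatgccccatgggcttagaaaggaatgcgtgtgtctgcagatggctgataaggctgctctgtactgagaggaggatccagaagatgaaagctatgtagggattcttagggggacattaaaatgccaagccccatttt
Dsp: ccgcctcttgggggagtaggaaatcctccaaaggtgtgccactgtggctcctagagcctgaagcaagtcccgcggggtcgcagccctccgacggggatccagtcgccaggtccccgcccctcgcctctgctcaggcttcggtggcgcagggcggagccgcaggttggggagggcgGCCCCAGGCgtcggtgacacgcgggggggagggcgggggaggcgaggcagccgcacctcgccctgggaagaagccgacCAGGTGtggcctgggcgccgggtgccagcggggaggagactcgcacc
The letters TATAAA of the TATA box were searched on both strands. So were the AP-1 letters TGANTCA. The E-box to which the Snail and Zeb repressors bind was searched as CACCTG. The letters used for AP-2 were GCCNNNGGC, and no matches overlapped. The Krt5 window held an E-box at -128 from the start, the Dsp window an E-box at 4 and an AP-2 match at -75, and the Krt14 window none of the 4, which says only that these letters are not in the window of that inner start. Of 32851 promoter windows, 20.2% held the E-box, 16.6% the AP-2 letters, 13.6% TATAAA and 7.81% the AP-1 letters. GC content was 57.7% in the Krt5 window, 48.3% in that of Krt14 and 73% in that of Dsp, with 6, 5 and 27 CpG sites, against medians of 52.7% and 7 over all windows. RefSeq windows were also found for Krt10, with TATAAA at -26 and an E-box at -52, and for Epcam, with E-boxes at -187 and -19, and the windows of Krt15, Krt17, Trp63 and Cdh1 were not used here.

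Total counts per library were 13430229 to 15725823 in the passage series and 9147324 to 27552949 over all 44. Values below are CPM, read counts relative to a library size scaled by TMM, which corrects it for composition. The targeted genes followed their labels, with E2f4 at 1118 to 1180 CPM in E2f4 OE against 35.5 to 47.5 in its control, at 20.4 to 21.8 in sh1 against 59.6 to 60.8, Tead1 at 268 to 285 in sh3 and 313 to 320 in sh4 against 508 to 572, and Atf3 at 0.451 to 2.10 in sh5 and 1.51 to 2.09 in sh6 against 2.77 to 3.31. 3 libraries stood apart. P1 replicate 3 held the highest value among the P1 libraries for all 8 detected keratinocyte genes. The nt library replicate 1 of the E2f4 knockdown had 18352 genes with counts against 14984 to 16475 in the other 43. Atf3 sh5 replicate 3 differed from replicates 1 and 2 by a chi-square of 59.4 and 63.7 per degree of freedom, where those differed from each other by 3.29, and it had the highest share of reads on no gene, 15.076%. Counts of calls and ratios to P1 are given with and without them where the value moved.

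The basal keratins were read in all 4 P1 libraries and were almost gone 2 passages later. Krt5 had 42.7, 34.6, 150.3 and 19.9 CPM in P1 replicates 1 to 4, a mean of 61.9 ± 59.7 (SD, n = 4). At P3 its raw counts were 1, 0, 5 and 0, at P5 0 in all 4 libraries, and at P7 2, 0, 0 and 0. Every P1 library was thus above every later one. Pooled over libraries, P1 was 597 times P3 (95% interval 274 to 1629), at least 1226-fold higher than P5, where 0 counts are set against a floor of 3 counts over the group, and 1597 times P7 (442 to 13189.7, on 2 counts). Without P1 replicate 3 the values were 314 (144 to 858), at least 645-fold and 840 (232 to 6943). These intervals and floors cover counting error only. In bulk RNA, fewer cells of a type and less RNA per cell cannot be told apart.

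Krt14, the partner of Krt5, followed it closely. It had 33.4, 31.7, 134 and 17.3 CPM at P1 (54.2 ± 53.8, SD, n = 4). Its counts were 0, 1, 1 and 3 at P3, 0, 0, 2 and 0 at P5, and 0 in all 4 P7 libraries. P1 was 627 times P3 (269 to 1934), and 320 times (137 to 987) without P1 replicate 3. Krt17 stood lower, at 15.0, 12.0, 45.2 and 7.80 CPM (SD 17.0, n = 4), and had 1, 0, 1 and 0 counts at P3 and 0 at both P5 and P7. Its pooled ratio of P1 to P3 was 580 (160 to 4798, on 2 counts), and P1 was at least 397-fold higher than P5 and at least 345-fold higher than P7. Without P1 replicate 3 these were 338 (93.2 to 2802), at least 232-fold and at least 201-fold. Krt15 had 0 counts in every P1 library, 0 of 55426074 reads, which allows a level of up to 0.0499 CPM, and its first counts in the series were 2 in a single P7 library. The basal pair and Krt17 were therefore read without the third basal keratin of the list.

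The junction genes divided by how much remained later. Cdh1 had 4.86, 3.13, 13.8 and 2.60 CPM at P1 (6.10 ± 5.23, SD, n = 4) and 1, 0, 3 and 0 counts at P3. It was at 0 in all P5 libraries and at 1, 0, 0 and 1 counts at P7. P1 was 88.6 times P3 (34.3 to 327), at least 121-fold higher than P5 and 158 times P7 (43.4 to 1308, on 2 counts). The values without P1 replicate 3 were 51.6 (19.7 to 192), at least 70.5-fold and 91.9 (25.0 to 765). Epcam had 1.51, 1.77, 5.67 and 1.24 CPM at P1 (2.55 ± 2.10, SD, n = 4). Its counts were 0, 0, 1 and 0 at P3, 0, 0, 0 and 2 at P5, and 1, 3, 2 and 4 at P7. It was thus read in every P7 library, at low counts, and the P1 to P7 ratio was 13.2 (6.98 to 28.1), or 7.86 (4.02 to 17.1) without P1 replicate 3.

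Dsp kept a measurable level at every passage. It had 19.3, 15.1, 64.2 and 13.3 CPM at P1 (27.97 ± 24.3, SD, n = 4), and 0.920, 0.206, 0.838 and 0.951 at P3 (0.729 ± 0.352). At P5 it had 0.646, 1.04, 0.905 and 2.32 CPM (1.23 ± 0.745) and at P7 1.37, 3.63, 2.46 and 5.64 (3.28 ± 1.83). P1 did not overlap any later passage, and P7 overlapped P5 but lay above every P3 library. The pooled P1 ratio was 37.8 to P3 (27.96 to 52.5), 22.6 to P5 (17.9 to 28.9) and 8.38 to P7 (7.16 to 9.86). Leaving out P1 replicate 3 gave 21.7 (15.9 to 30.2), 12.9 (10.2 to 16.7) and 4.80 (4.06 to 5.70).

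Trp63 and Krt10 had low levels. Trp63 had 1.10, 1.36, 4.44 and 2.17 CPM at P1 (2.27 ± 1.52, SD, n = 4). Its counts were 11, 2, 10 and 2 at P3, 10, 7, 6 and 10 at P5, and 1, 5, 0 and 2 at P7. The pooled P1 ratio was 5.34 to P3 (3.47 to 8.54), 4.15 to P5 (2.82 to 6.27) and 14.9 to P7 (7.33 to 35.1), and without P1 replicate 3 it was 3.68 (2.31 to 6.07), 2.86 (1.87 to 4.47) and 10.3 (4.93 to 24.7). Krt10, the suprabasal keratin, had 2.12, 1.77, 3.01 and 2.85 CPM at P1 (2.44 ± 0.589, SD, n = 4) and 2.63, 1.30, 1.29 and 2.12 at P3. At P5 it had 1.61, 1.59, 1.42 and 2.58 CPM and at P7 3.13, 2.70, 2.54 and 1.93. All its passages overlapped, and its P1 ratios were 1.34 to P3 (1.03 to 1.73), 1.36 to P5 (1.05 to 1.76) and 0.952 to P7 (0.748 to 1.21). All 3 intervals included equality without P1 replicate 3, with ratios of 1.24 (0.935 to 1.64), 1.26 (0.951 to 1.66) and 0.882 (0.675 to 1.15).

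**Figure D1:**
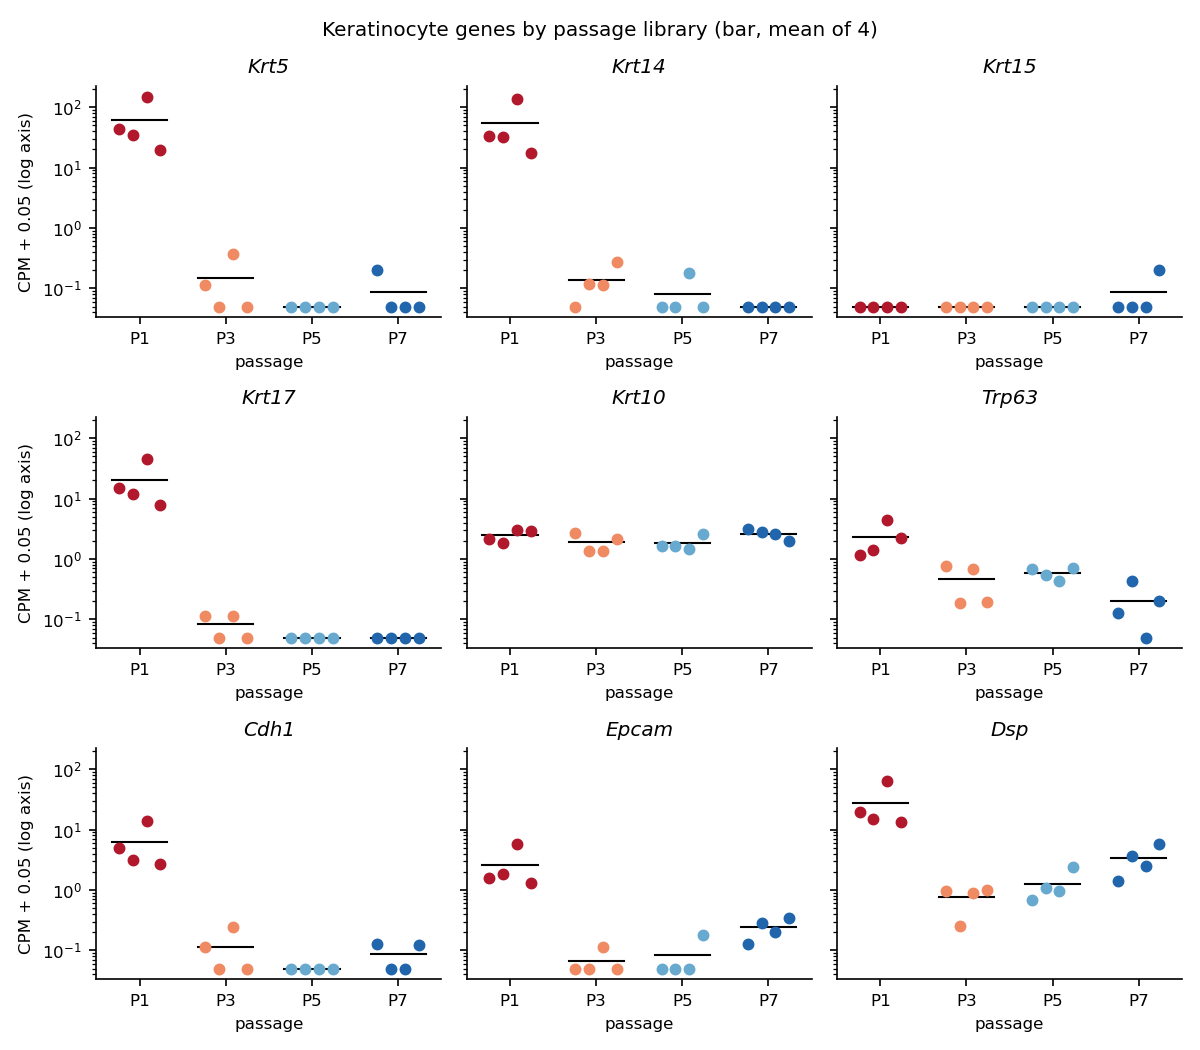
CPM of the 9 keratinocyte genes in the 16 passage libraries, with 0.05 added for the log axis. Each point is 1 library and each bar the mean of 4. The 4 P1 libraries lie above all later ones for Krt5, Krt14, Krt17, Trp63, Cdh1, Epcam and Dsp, Krt10 overlaps at every passage, and Krt15 is at 0 except for 1 P7 library.

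Per kilobase of exon the P1 order changed, since Dsp, with 9592 bases of exon, fell behind Krt17, with 1553, and Krt5, with 2205, fell behind Krt14, with 1720. Trp63 was last on both scales. Krt14 was highest, at 31.5 CPM per kb, next to Krt5 at 28.1, and Krt17 followed at 12.9. Dsp had 2.92, Cdh1 1.38, Epcam 1.24, Krt10 1.16 and Trp63 0.374 CPM per kb. With the SD over P1 libraries close to the mean for most of these genes, neighbours in this order did not differ beyond the spread between libraries, although the order of Krt14, Krt17 and Dsp was the same within each library.

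The passages were compared with edgeR's quasi-likelihood test over 13442 genes, and a gene was called at an adjusted p under 0.05 and a fold change over 2. Tested were 8 of the 9 matched genes, and Krt15 was too low. Of the 8, only Krt10 and Dsp would have passed the filter on low counts in the later passages alone, so the other 6 were tested because of P1 and had to differ. At P3, 7 of the 8 were lower than at P1 and 0 higher, where 6.58% of all tested genes were called lower and 2.4% higher. The count was again 7 lower and 0 higher at P5, where 10.1% and 4.83% of all genes were called, and at P7, where 13.3% and 8.1% were called. The gene not called was Krt10 each time. The median log2 fold change of the 8 genes was -6.48 at P3, -7.70 at P5 and -5.42 at P7, against 0.0050, -0.0018 and -0.010 for all genes. Fitted fold changes of genes near 0 counts depend on the prior count of the fit and are not bounds.

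For Krt5 the log2 fold change of P3 over P1 was -9.13 (SE 0.83, adjusted p = 4.16e-07), and for Krt14 it was -9.18 (SE 0.85, adjusted p = 4.59e-07). The value of Dsp was -5.24 at P3 (SE 0.58, adjusted p = 1.05e-06), -4.50 at P5 (SE 0.54) and -3.09 at P7 (SE 0.48, adjusted p = 1.48e-05). Trp63 had the smallest of the called differences at P3, -2.40 (SE 0.53, adjusted p = 0.00163), with -2.04 at P5 (adjusted p = 0.00228) and -3.82 at P7 (adjusted p = 4.06e-05). For Krt17, Cdh1 and Epcam the values at P3 were -8.88, -6.32 and -6.64. Krt10 differed by -0.41 at P3 (SE 0.28, adjusted p = 0.271), -0.44 at P5 (adjusted p = 0.200) and 0.08 at P7 (adjusted p = 0.821).

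Without P1 replicate 3 the same 7 genes were called at P3, P5 and P7, and each difference was smaller. At P3 the log2 fold change of Krt5 was then -8.20, that of Krt14 -8.20, that of Krt17 -8.09, that of Cdh1 -5.53 and that of Epcam -5.88. Dsp was at -4.43 at P3, -3.69 at P5 and -2.27 at P7. Trp63 moved most in its adjusted p, to 0.0104 at P3 (log2 fold change -1.86) and to 0.0174 at P5 (-1.49). Krt10 was then at -0.30, -0.32 and 0.20.

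After P3 no further call was made. Of the 8 genes, 0 were called between P3 and P5, where 3.89% of all genes were, and 0 between P5 and P7, where 3.47% were, with edgeR and also with DESeq2. At an unadjusted p under 0.05 there were 0 between P3 and P5 and 2 between P5 and P7. These 2 were Dsp, with a log2 fold change of 1.42 (SE 0.60, adjusted p = 0.114), and Trp63, with -1.78 (SE 0.78, adjusted p = 0.128). Summed over each later passage, Krt5, Krt14, Krt17, Cdh1 and Epcam had only 0 to 10 counts. They could hardly be called, so the lack of calls says little about them.

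The spread between P1 libraries was far above counting error for 7 of the 8 detected genes. The summed level of the listed genes was 120, 101, 421 and 67.1 CPM in P1 replicates 1 to 4, with a mean of 177 ± 164 (SD, n = 4) and a coefficient of variation of 92.3%. Replicate 3 was the highest and replicate 4 the lowest. At later passages the sums were 1.71 to 4.47 CPM at P3, 2.84 to 5.69 at P5 and 4.89 to 8.24 at P7, so that even the lowest P1 library was above all of them. Without replicate 3 the P1 mean was 96.2 CPM and its coefficient of variation 27.9%.

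Replicate 3 was over 2 times the mean of the other P1 libraries for 7 of the 8 genes, all but Krt10, while 0.68% of 12655 genes with at least 1 CPM at P1 were. Replicates 1, 2 and 4 had 0 of the 8 genes over 2 times, where 0.079%, 0.119% and 0.221% of all genes were. Against the other libraries pooled, replicate 3 held 4.95 times the Krt14 (4.60 to 5.31), 4.70 times the Krt5 (4.40 to 5.03) and 3.94 times the Krt17 (3.50 to 4.42). The junction genes stood in the same range, Dsp at 4.06 (3.68 to 4.48), Cdh1 at 3.95 (3.19 to 4.89) and Epcam at 3.79 (2.72 to 5.31). Trp63 was at 2.85 (2.00 to 4.04), and Krt10 at 1.33 (0.911 to 1.91), an interval that includes equality. Replicate 4 was at 0.261 of the others for Krt14, 0.262 for Krt5 and 0.405 for Dsp, but at 0.942 for Trp63 and 1.24 for Krt10.

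The coefficient of variation over P1 was 99.4% for Krt14, where counting error alone would give 3.54%, and 96.5% for Krt5, where it would give 3.31%. Of all tested genes, 0.231% varied more than Krt14 and 0.275% more than Krt5. Dsp was at 86.8%, Cdh1 at 85.7%, Krt17 at 85.2%, Epcam at 82.3% and Trp63 at 67.1%. Krt10, at 24.2% against a counting error of 16.5%, was the least variable of the 8.

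Ratios within a library separate the genes that moved as a block from those that did not. The ratio of Krt5 to Krt14 counts was 1.28, 1.09, 1.12 and 1.15 in P1 replicates 1 to 4, with 95% intervals that all overlapped. Krt17 was at 0.449, 0.380, 0.337 and 0.450 of Krt14, and its interval in replicate 1 (0.381 to 0.527) lay above that in replicate 3 (0.308 to 0.368). Per exon length, Krt5 was at 0.852 to 0.997 of Krt14, so the pair was read in near-equal amounts in every P1 library despite the spread in level. Dsp was at 0.578, 0.476, 0.478 and 0.768 of Krt14, and its interval in replicate 4 (0.640 to 0.920) lay above that in replicate 3 (0.442 to 0.517). Trp63 was at 0.0328, 0.0429, 0.0331 and 0.125 of Krt14, and Krt10 at 0.0635, 0.0558, 0.0224 and 0.164. For both, replicate 4, with the least Krt14, had the highest ratio, and its interval (0.0853 to 0.178 for Trp63, 0.118 to 0.225 for Krt10) lay above those of the other libraries.

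Part of the other epidermal genes were also high in replicate 3. Of 35 genes of the wider epidermal lists described below with at least 1 CPM at P1, 18 were over 2 times the mean of the other libraries there, while Krt19 was at 0.594, Klf5 at 0.601 and Krt7 at 0.605 of the others pooled. Of the 86 genes over 2 times there, 25 were keratinocyte genes or genes of the wider lists, 61 were in no list and 0 were in a list of another cell type. The 12655 genes with at least 1 CPM at P1 held 8 keratinocyte genes and 35 wider genes. Of the 86, 56 were called lower at P3, where 6.58% of all tested genes were. The 86 were chosen for a high P1 library, which raises the P1 mean and so favours such calls. Chosen after their values were seen, examples are Cdcp1 at 6.14 times the mean of the others, the laminin genes Lamb3 at 5.27 and Lama3 at 4.84, and the hemidesmosome collagen Col17a1 at 4.60. Krt6a, a keratin of activated keratinocytes, was at 4.12, and its ratio to Krt14 was 0.555, 0.590, 0.509 and 0.721 in the 4 libraries.

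**Figure D2:**
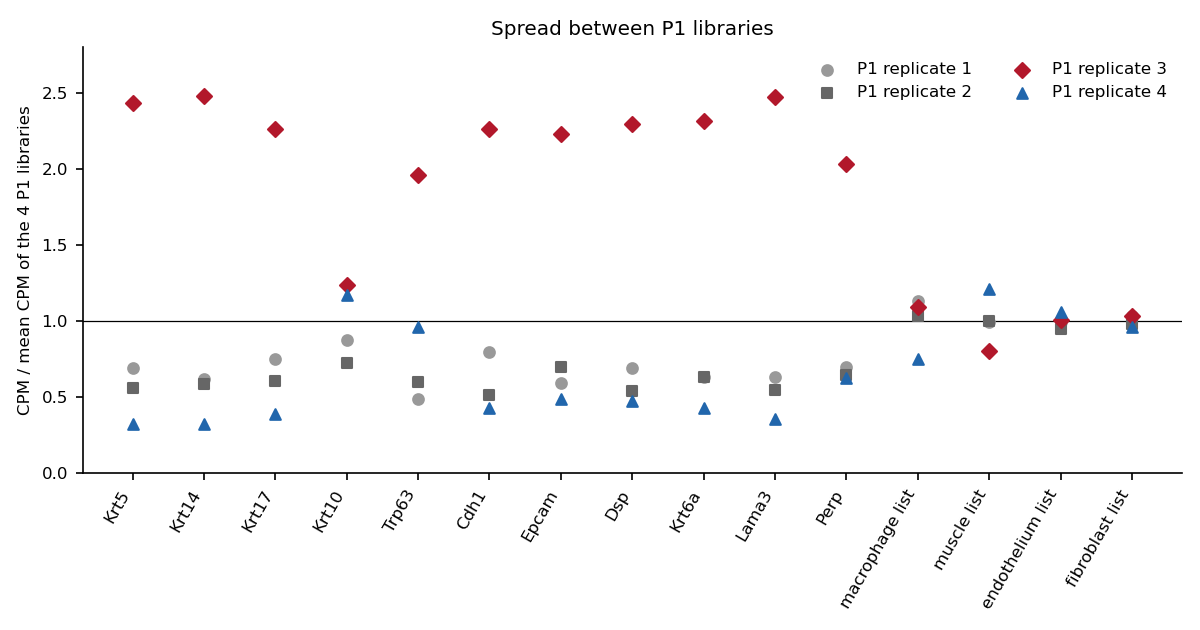
CPM in each P1 library relative to the mean of the 4, for 8 keratinocyte genes, 3 other epidermal genes and the summed CPM of 4 lists of other cell types. Replicate 3 is near 2 or above for all the epidermal genes except Krt10, and near 1 for the fibroblast and endothelium lists.

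Marker lists of other cell types did not follow replicate 3. In P1 replicates 1 to 4 the summed fibroblast list had 26755, 25306, 26725 and 24784 CPM, the endothelial list 199, 189.5, 201 and 212, the macrophage list 495, 453, 477 and 328, and the skeletal muscle list 213, 215, 172 and 260. The hair follicle list had 61.4 to 75.2 CPM at P1. Its mean sum was higher later, at 163 CPM for P3, 302 for P5 and 208 for P7, and 4 of its 10 genes were tested. Whether the Krt17 reads came from follicle cells was not tested. The lists of melanocytes and Schwann cells (74.8 to 86.7), of adipocytes (478 to 636) and of the repressors of epithelial genes (618 to 675) were also narrow.

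Several of these lists fell over the same passages as the keratinocyte genes. The genes named for each list are its 2 highest by mean CPM over all 16 passage libraries, not at P1. Over all tested genes, 6.58% were called lower at P3 and 2.4% higher. How many genes of these lists passed the filter on low counts only through P1 was not counted. At P3, 10 of 10 macrophage genes (Lyz2 and Csf1r) were called lower, with sums of 328 to 495 CPM at P1 and 46.0 to 63.8 at P3. So were 9 of 10 endothelial genes (Kdr and Cdh5; 189.5 to 212, then 49.7 to 61.8), 8 of 9 tested muscle genes (Acta1 and Myh3; 172 to 260, then 57.3 to 65.3) and 3 of 5 tested adipocyte genes (Lpl and Plin4; 478 to 636, then 235 to 422). Of 10 fibroblast genes, with Col1a1 and Col1a2 named, 2 were lower and 1 higher, and the sum was 24784 to 26755 CPM at P1 and 35225 to 41048 at P3. Of 8 tested melanocyte and Schwann cell genes, 1 was lower and 2 higher, and of 4 tested hair follicle genes, with Lgr5 and Hoxc13 named, 0 were lower and 2 higher. Of 6 genes of the epithelial repressors, with Zeb2 and Twist2 named, 0 were called at P3, P5 or P7. The part of these changes in those of the keratinocyte genes was not tested.

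The wider epidermal lists held 73 names in 7 groups, 72 of which matched, and 40 were tested in the passage series. At P3, 20 of the 40 were lower than at P1 and 4 higher, at P5 22 and 3, and at P7 22 and 5. Of all tested genes, 6.58% were lower and 2.4% higher at P3, 10.1% and 4.83% at P5, and 13.3% and 8.1% at P7. How many of the 40 passed the filter on low counts only through P1 was not counted. Their median log2 fold changes were -1.27, -1.36 and -1.42, nearer 0 than those of the 8 listed genes, and at P3 every group held genes that were not called. Without P1 replicate 3 the calls in either direction were 22, 24 and 26, against 24, 25 and 27.

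Among other epidermal keratins, 1 of 2 tested was lower at P3. This was Krt6a, at -8.95 (adjusted p = 2.56e-06), while Krt80 was at -0.56 and not called. Krt16, the type I partner of Krt6a, was too low to be tested, with 25, 28, 80 and 10 counts at P1 and 0 in all later libraries. Of the simple epithelial keratins, typical of single-layered epithelia, 0 of 2 tested were called at P3, with Krt19 at 0.67 and Krt7 at -0.44, and Krt7 fell by 1.87 at P7. Krt8 had 6, 12, 36 and 11 counts at P1 and was not tested.

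Of 10 tested desmosome genes, 6 were lower and 1 higher at each of P3, P5 and P7. Dsc3, a desmosomal cadherin, was at -9.78 at P3, while Jup (plakoglobin), which also sits in other junctions, was at 0.13 and not called. Perp, a membrane protein of desmosomes and a p63 and p53 target, fell by 2.71 at P3 (adjusted p = 3.72e-05) and was at -0.67 at P7 (adjusted p = 0.102). Between P5 and P7 it rose by 2.22 (SE 0.42, adjusted p = 0.00118). Its counts were 86, 80, 251 and 85 at P1 and 69, 80, 58 and 71 at P7, whereas the difference of Dsp between the same passages did not pass.

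Of 8 basement membrane adhesion genes, 5 were lower at P3 and 6 at P5 and P7. Among them, the broadly made linkers Plec (-0.16) and Dst (0.33) were not called at P3. Of 3 tested epithelial regulators, 1 was lower at P3 and 2 at P5, and at P7 2 were lower and 1 higher. Klf5 was called lower at P7 (-2.30) but not at P3 (-0.63). Tfap2c had 10, 6, 35 and 37 counts at P1 and was not tested.

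Of 10 junction and surface genes, 6 were lower and 1 higher at P3. Sfn (14-3-3 sigma) fell by 2.47 at P3, and F11r (-0.53) and Cxadr (0.12) were not called. Of 5 tested genes of terminal differentiation, 1 was lower and 2 higher at P3, with Sbsn at -0.12 and Tgm1 at -0.94 not called, and Dmkn, with 6, 12, 37 and 5 counts at P1, was not tested. The 4 genes called higher at P3 were the cadherin Cdh3 (1.95), the plakophilin Pkp2 (1.25), Casp14 (1.34) and Ivl (1.81). Late in the series Ivl (2.84), Perp and Sprr1a (1.72) were called higher at P7 than at P5, and between P3 and P5 Sprr1a (3.34) was called higher and Klf5 (-1.17) lower. Ivl and Sprr1a encode proteins of the cornified envelope.

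**Figure D3:**
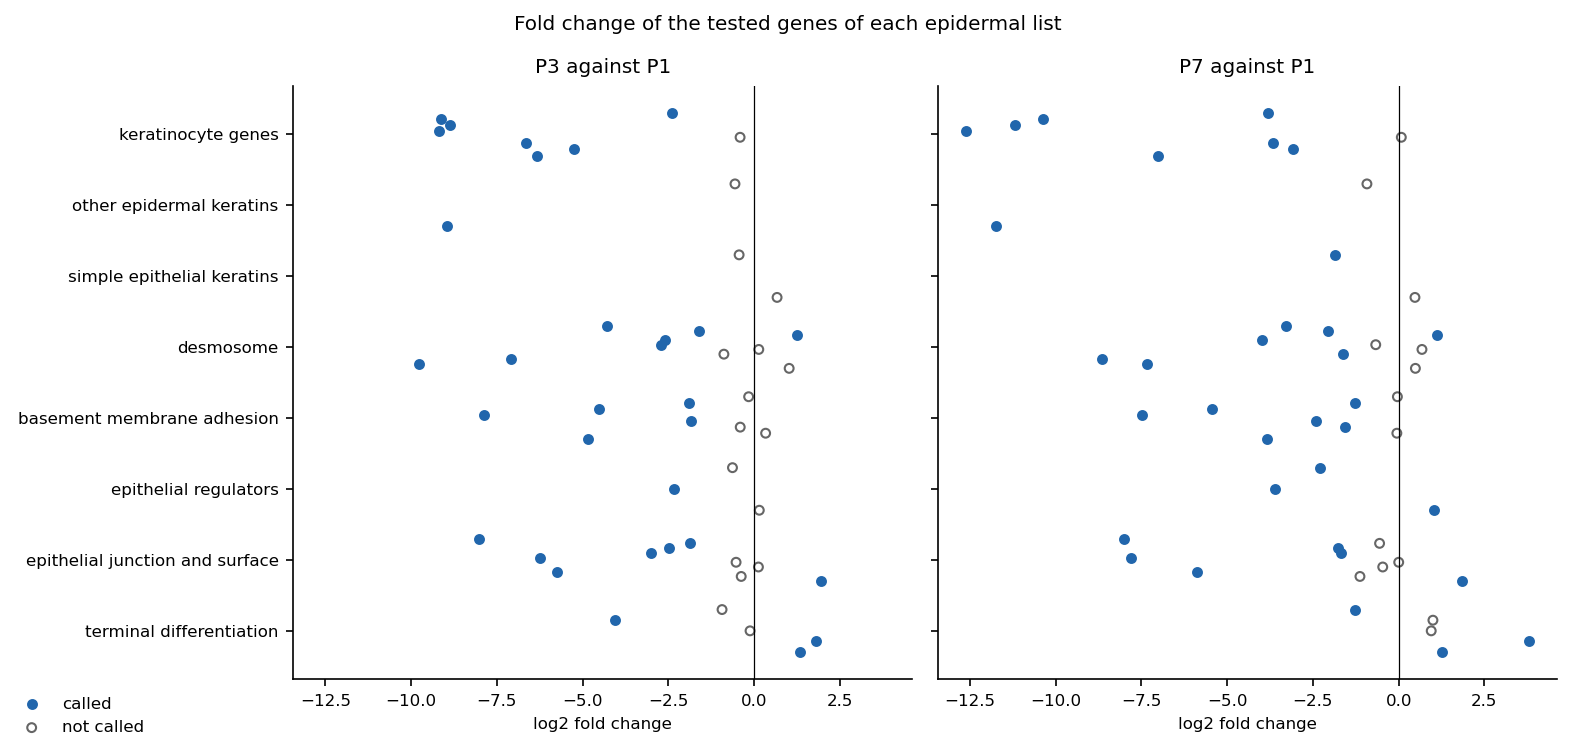
Log2 fold change of each tested gene of the keratinocyte genes and the 7 wider epidermal lists, P3 over P1 on the left and P7 over P1 on the right. Filled points are called and open ones not. Of the keratinocyte genes 7 of 8 are called on the left and on the right, and the terminal differentiation list has called genes on both sides of 0.

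For each tested gene the profiles most like it were found as the smallest root mean square difference of centred log2 CPM over the 16 libraries. Krt6a was the nearest to Krt17 (0.254), to Krt5 (0.478) and to Krt14 (0.531), and Lama3 was the second for all 3 keratins. Ccl6, a chemokine of myeloid cells, was the third for Krt5 and Krt14, and Dsc3 for Krt17. Cdh1 was nearest to Dsg3 (0.422), followed by Clu and Serpinb5. Epcam was nearest to Tns4 (0.516), followed by Ifi202b and Fermt1, and Dsp to Tns4 (0.835), followed by Col17a1 and Clic5. Trp63 was nearest to H2-K2 (0.601), followed by Apoe and Hmgcll1. Krt10 was nearest to Acy1 (0.267), Nbl1 and Sdhd, none of which is in an epidermal list. The 16 libraries share their passage groups, so any gene that dropped after P1 comes near.

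In the manipulated cultures the basal keratins were absent or nearly so. Krt5, Krt14, Krt15 and Krt17 had 0 to 5 counts in each of the 28 libraries, as in the later passages, where no library had more than 5. Krt10 was read in every one of them, at 1.24 to 2.97 CPM.

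In the E2f4 OE experiment 4 of the 9 genes were tested, and 2 were called, where 18.1% of all tested genes were. Cdh1 had 18 and 19 counts in the E2f4 OE libraries (0.654 and 0.908 CPM) and 3 and 0 in the controls (0.131 and 0 CPM). Its log2 fold change was 3.28 (SE 0.80, adjusted p = 0.00514), and 2.51 to 7.09 over 9 alternatives, with an adjusted p of at most 0.0297. With so few counts in the controls, Cdh1 passed the filter on low counts only through the E2f4 OE libraries, and so had to differ. Dsp moved the other way, with 25 and 15 counts (0.909 and 0.717 CPM) against 64 and 62 (2.79 and 3.57 CPM). Its log2 fold change was -1.94 (SE 0.32, adjusted p = 5.31e-04), and -2.14 to -1.76 over the alternatives. Neither gene's groups overlapped, with 2 libraries a group.

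The remaining genes were not called in this experiment. Trp63 was at 0.25 (adjusted p = 0.720), from 19 and 7 counts against 11 and 7, and Krt10 at -0.14 (adjusted p = 0.688). Krt17 had 4 and 2 counts with E2f4 OE and 0 in both controls and was not tested. Of 30 wider epidermal genes tested, 10 were higher, led by Ppl (6.16), Ehf (4.09), Sbsn (2.62), Tgm1 (2.46) and Klf5 (2.26), followed by Pkp1 (2.08), Krt80 (1.92), Cxadr (1.69), Cdh3 (1.45) and Sfn (1.24). Ivl (-1.85) and Lamb3 (-1.36) were lower. Over all 13199 tested genes, 1015 were higher and 1379 lower. How many of the wider genes passed the filter on low counts only through the E2f4 OE libraries was not counted. Of the 6 repressors of epithelial genes, which are known to act on Cdh1, Zeb2 (-1.01) and Snai2 (-1.01) were lower, Snai1 (1.33) was higher and the other 3 were not called. Reads of the Y-linked gene Ddx3y and of Xist were both present and moved with the group, Ddx3y at 7.36 to 9.96 CPM with E2f4 OE and 36.5 to 36.8 in the controls, and Xist at 559.5 to 686 and 1156 to 1399.5 CPM. The part of this difference in the results was not tested.

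In the E2f4 knockdown only Krt10 was tested, at -0.08 (adjusted p = 0.903), and 0 of the genes were called, where 1.67% of all genes were. Without nt replicate 1 the value was 0.17 (adjusted p = 0.842). Dsp had 4, 4 and 6 counts with sh1 and 26, 9 and 17 with nt, groups that did not overlap, but was removed by the filter on low counts. With no filter it was called at -1.75 (adjusted p = 0.0280), and it passed the filter and was called without sh1 replicate 3 (-2.01) or without nt replicate 2 (-2.05). It also passed the filter but was not called without sh1 replicate 1 (-1.60, adjusted p = 0.0917) or replicate 2 (-1.69, adjusted p = 0.0944), and DESeq2 gave -1.78 with no adjusted p. Without nt replicate 1, which held the highest count of 26, Dsp did not pass the filter, so each of its calls includes that library. Cdh1, Trp63 and Epcam had 17, 19 and 10 counts in nt replicate 1 and 0 to 4 in the other 5 libraries of the experiment. Of 23 wider genes, Perp (1.15) was higher and Klf5 (-1.04) and Sprr1a (-1.63) lower. Without nt replicate 1, Perp was called at 1.11 (adjusted p = 0.0166), Klf5 (-0.98, adjusted p = 0.144) and Sprr1a (-1.502, adjusted p = 0.0597) were not, and Cldn1 was called at -1.40 (adjusted p = 0.0454).

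In the Tead1 knockdown Dsp and Krt10 were tested and 0 of these 2 were called with sh3, where 2.71% of all genes were, or with sh4, where 1.53% were. Dsp had 15, 46 and 32 counts with sh3, 19, 36 and 22 with sh4 and 31, 17 and 26 with nt. Its log2 fold changes were 0.33 (SE 0.36) and 0.01 (SE 0.37), and those of Krt10 -0.03 (SE 0.28) and 0.17 (SE 0.27). Of 30 wider genes, sh3 had Perp (1.14) and St14 (1.49) higher and Cxadr (-1.04), Ivl (-1.19) and Sprr1a (-1.05) lower, and sh4 had Cxadr (-1.12) and Krt18 (-1.82) lower. Cxadr, a junction protein, was thus lower with both hairpins, which share their nt libraries. Their target sequences, as listed in the paper's supplement, overlap almost fully, so sh4 is not an independent repeat of sh3.

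In the Atf3 knockdown the same 2 genes were tested and 0 were called with sh5, where 5.2% of all genes were, or with sh6, where 15.7% were. Dsp had 13, 5 and 2 counts with sh5, 9, 15 and 18 with sh6 and 26, 7 and 25 with nt. Its log2 fold change was -1.31 with sh5 (SE 0.61, adjusted p = 0.115) and -0.12 with sh6 (adjusted p = 0.870). The sh5 difference was called without sh5 replicate 1, at -2.22 (adjusted p = 0.0352), and not without any other library of the 2 groups, with -0.88 (adjusted p = 0.229) without sh5 replicate 3 and -1.64 (adjusted p = 0.0795) without nt replicate 2. Krt10 was at 0.07 and -0.15. Ddx3y and Xist moved with the group here too. Ddx3y was at 79.9 to 87.2 CPM with nt, 92.1 to 104 with sh5 and 120 to 136 with sh6. Xist was at 301 to 327, 407 to 464 and 199 to 269 CPM. In the E2f4 knockdown Xist was at 213 to 234 CPM with sh1 and 243 to 322 with nt, while Ddx3y overlapped. The part of these differences in the results was not tested.

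Of 28 wider genes, 7 were lower with sh5, namely Grhl1 (-1.26), Itgb4 (-1.12), Klf5 (-1.46), Krt19 (-2.38), Lor (-1.64), Sbsn (-1.27) and Sprr1a (-1.57). With sh6, 6 were lower, namely Grhl1 (-1.14), Itgb4 (-1.27), Klf5 (-1.13), Cldn1 (-3.71), Pkp1 (-1.75) and Sfn (-1.42), and 5 were higher, namely Esrp2 (1.67), Krt18 (1.81), Pkp2 (1.59), Sprr1a (1.26) and St14 (1.44). Over all 13345 tested genes, 510 were lower and 184 higher with sh5, and 1449 were lower and 645 higher with sh6. Grhl1, Itgb4 and Klf5 were lower with both hairpins, which share their nt libraries, and Sprr1a was lower with sh5 and higher with sh6. Without sh5 replicate 3, 489 of all genes were called with sh5 instead of 694, and 6 of the 7 wider genes were called again, while Lor was at -1.55 (adjusted p = 0.0533).

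**Figure D4:**
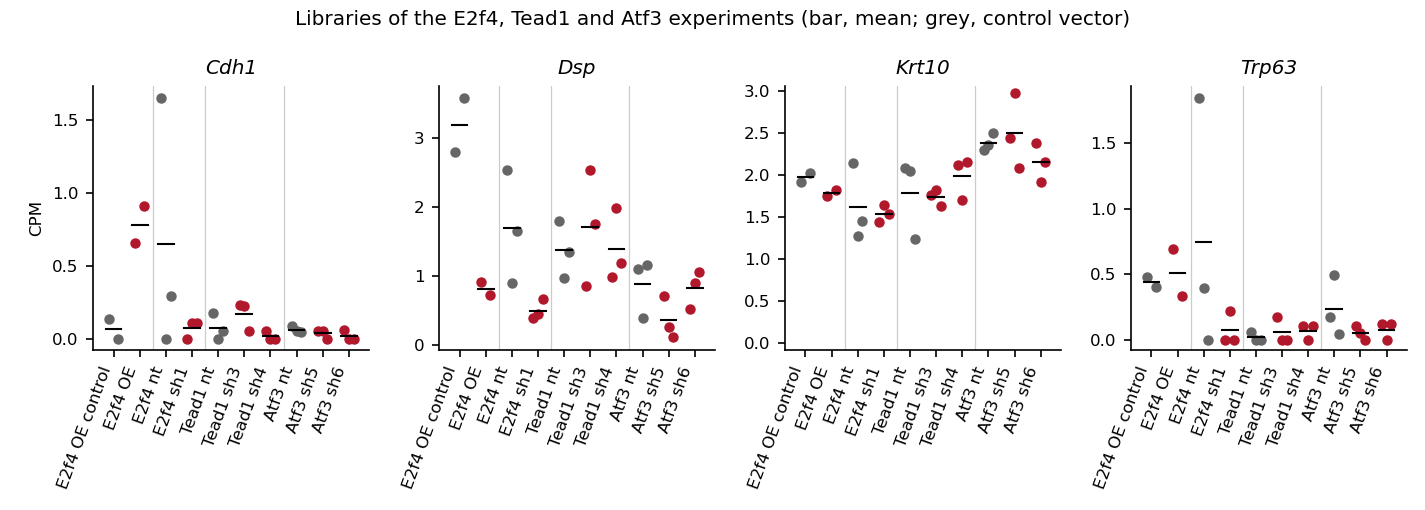
CPM of Cdh1, Dsp, Krt10 and Trp63 in the 28 libraries of the manipulated cultures, with control libraries in grey, the others in red and bars at the group means. Cdh1 is higher and Dsp lower in the 2 E2f4 OE libraries than in their controls, and 1 E2f4 nt library is the highest for Cdh1 and Trp63.

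Chromatin at the promoters was compared through the ATAC-seq peak lists, which hold a height and a p for each peak but no read counts, so the depth is unknown. The measure was the percentile, within its own sample, of the strongest peak within 1000 bases of a start site, and 0 where none was listed. The lists hold 203912 to 265932 peaks per sample and reach down to a -log10 q of 0.488 to 0.607, so they include weak peaks. No peak was listed at Krt5, Krt15, Krt17 or Krt10 in any of the 13 samples, P1 included. The nearest summit was 2051 to 3141 bases from the start of Krt5, 2230 to 2252 from Krt10, 3669 to 10294 from Krt15 and 6086 to 6483 from Krt17. Krt14 had a peak in 3 samples, none of them at P1, and at most at the percentile of 15.5, and Epcam had one in 3 samples, at most at 12.7.

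Peaks were regular at the other 3 genes. Cdh1 had one in 11 of 13 samples, at most at the percentile of 36.2, and Trp63 in all 13, at 7.78 to 64.5. The strongest Trp63 peak belonged in all 13 to the upstream start at 25683765, and not to the inner start at 25801916. These percentiles therefore do not describe the inner start. Dsp had one in all 13, at 37.0 to 70.3, with means of 48.2 ± 11.4 at P1 (SD, n = 4), and, over 3 samples each, of 44.1 ± 4.87 for P3, 66.1 ± 2.77 for P5 and 62.7 ± 10.4 for P7. The 3 P5 samples were above all 4 P1 samples. In 11 samples the strongest Dsp peak had its summit at -646 to -616 from the start, and in the other 2, both of P3, at 199 and 245.

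Of the 9 genes, 5 had a promoter peak in any sample and were tested with an exact permutation test, two-sided, with 35 splits and a smallest p of 0.0286. At an adjusted p under 0.05, 0 of the 5 were called at P3, P5 or P7 against P1, and 0% of 17799 genes were called in each. With this smallest p, the adjustment lets a gene pass only if most genes reach it. The lack of adjusted calls therefore says nothing about the 5 genes. At an unadjusted p under 0.05, 0 of the 5 passed, where 20.7% of all genes did at P3, 26.3% at P5 and 35.7% at P7. The largest difference was that of Dsp at P5, 17.9 percentile points (exact permutation p = 0.0571, adjusted p = 0.159), followed by 14.6 at P7 (exact permutation p = 0.143, adjusted p = 0.244). Against these, the median over all genes was -0.839 points at P5 and -1.51 at P7.

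**Figure D5:**
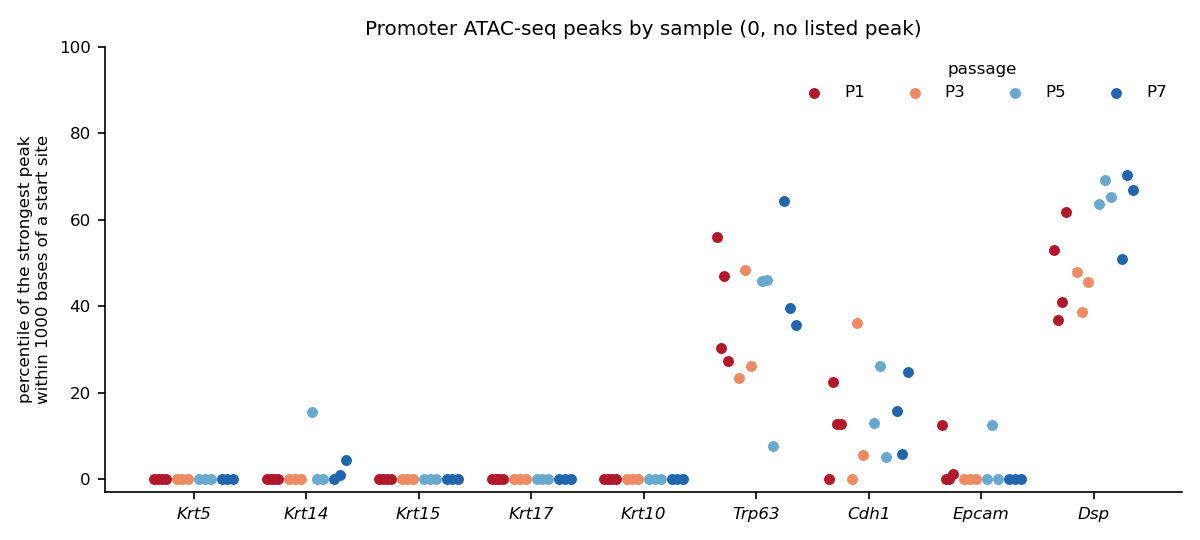
Percentile of the strongest ATAC-seq peak within 1000 bases of a start site of each keratinocyte gene, with 1 point per sample and 0 where no peak was listed. Krt5, Krt15, Krt17 and Krt10 are at 0 in all 13 samples, and the highest values are those of Dsp at P5 and P7.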

How the data were processed

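RNA-seq and ATAC-seq of mouse skin fibroblasts were used, and 18 bisulfite sequencing samples were not analysed here. Per the methods and the submitters' notes, the authors used Trimmomatic 0.39 for trimming, HISAT2 2.2.1 for alignment to mm10 and HTSeq 0.12.4, in its unstranded mode, for counting reads on genes. Raw counts were deposited, and in 28 libraries 5.636 to 15.076% of reads fell on no gene and 1.435 to 2.316% were ambiguous, which were left out. For ATAC-seq the authors called peaks per sample with MACS2. For each peak the deposited fold enrichment, -log10 q and -log10 p are those of MACS2, and the last was ranked here within its sample.

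All groups of an experiment entered 1 fit of edgeR 4.0.16 (R 4.3.3, limma 3.58.1), with filterByExpr, TMM scaling, the quasi-likelihood test and Benjamini-Hochberg adjustment over all genes tested. The filter asks for 0.696 CPM in at least 4 passage libraries. A call needed an adjusted p under 0.05 and a fold change over 2. Ratios of pooled counts carry exact 95% intervals, and the floor of a count of 0 was 3 counts. The step was tested on simulated data. The listed genes, the wider lists and the tests were chosen with earlier results of these data known. Named were all listed genes, the 3 highest genes at P1 of each wider list, wider genes called in an overexpression or hairpin comparison, the 2 highest genes of each other list, and the 3 nearest profiles, and some of these genes are not reported here. Alternatives were DESeq2 1.42.0, its size factors, no filter, only the groups compared, the replicate number as a block and leaving out each library, and for peaks another window, threshold or measure. Replicates differed by more than sampling noise (chi-square over its degrees of freedom 2.75 to 63.7 in 50 pairs).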

Additional observations from a re-analysis of the deposited data

Results flagged for a closer look

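Within each passage, 127 sets of 4 libraries were checked for a library whose gap to the nearest other exceeds Dixon's 95% critical value, which chance alone exceeds in about 1 set in 20, and 21 did. In P1 replicate 3 the high values were those of Krt14 (134 CPM), Epcam (5.67), Dsp (64.2), Krt6a (68.3), Perp (17.2), Sfn (40.5), Pkp1 (11.3), Itgb4 (33.7) and Lamb3 (39.1), and the summed keratinocyte genes (421 CPM). P1 replicate 2 stood apart for Krt80 (16.2 CPM). At P3 the values were Dsp (0.206 CPM) and F11r (10.6) in replicate 2, Sfn (4.39), Tgm1 (0.731) and Pkp1 (1.90) in replicate 4, and Grhl1 (0.774) and Lor (0.0645) in replicate 3. At P5 replicate 4 stood apart for Krt10 (2.58 CPM) and the summed keratinocyte genes (5.69), and at P7 replicate 1 for Tgm1 (1.37).

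Hairpins to the same gene differed in 13 comparisons over 11 epidermal genes in edgeR's test of the difference itself at an adjusted p under 0.05. The genes checked were the keratinocyte genes and the named wider genes, some of them named because a comparison with a control had called them. The differences of Cdh3, Perp and Jup given below were under 2-fold. With a fold change over 2 also required, 2102 of all 13345 tested genes differed between Atf3 sh6 and sh5. Of the 28 wider genes tested there, 7 were then higher with sh6 and 1 lower. For Tead1 sh4 and sh3, whose target sequences overlap almost fully, 35 of 13012 genes differed, and 0 of the 30 wider genes tested. Between Tead1 sh4 and sh3 the log2 differences were 0.22 for Cdh3 and -0.62 for Perp. Between Atf3 sh6 and sh5 they were 3.08 for Krt19, 2.83 for Sprr1a, 2.12 for Pkp2, 1.95 for Krt18, 1.85 for St14, 1.84 for Esrp2, 1.53 for Lor, 0.61 for Perp, 0.31 for Jup, -0.40 for Cdh3 and -3.04 for Cldn1.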

How the results depend on the processing

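The counts of keratinocyte genes called at P3, P5 and P7 against P1 were 7 under every alternative run, and 0 between later passages. With no filter on low counts the wider epidermal genes called were 38 at P3 (24 in the fit reported) and 40 at P5 (25). The coefficient of variation of the summed genes over P1 libraries was 27.9 to 99.3% when 1 library was left out, and the lowest value was that without P1 replicate 3. The labels do not say whether the replicate numbers pair the passage libraries. Deviations of same-numbered libraries correlated at -0.262 to 0.276, and those of replicate 4 were positive for every pair of passages, at 0.105 to 0.276. Libraries with different numbers were not compared, so pairing was not settled. The replicate block left 7, 7, 7, 0 and 0 genes called in the passage comparisons and 2 in the manipulated cultures. Krt10 at P7, not called, ranged from -0.045 to 0.20 with 1 library left out and changed sign without P1 replicate 2 and, to -0.029, without P7 replicate 1. Trp63 with E2f4 OE, not called, ranged from -0.41 to 0.63 and changed sign without E2f4 OE replicate 1. The cause was not tested. The alternatives for the log2 fold changes with E2f4 OE, and the ratios to P1 and the wider hairpin calls without 1 library, were chosen after seeing the data. For promoter peaks 0 genes were called in every alternative, but leaving out 1 sample raises the smallest possible p to 0.05 or 0.0667, so those runs could not call any gene. The runs with all samples could call a gene only if most genes reached their smallest p, so their lack of calls is not informative either. Genes at a few counts, such as Epcam after P1, are limited by depth.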
